A study of Mus musculus with 3 samples.

Results

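The matrix metalloproteinases are zinc-dependent proteinases that cut collagens, other matrix proteins, chemokines and growth factor precursors outside the cell. The 10 genes described here (*Mmp2*, *Mmp3*, *Mmp8*, *Mmp9*, *Mmp11*, *Mmp12*, *Mmp13*, *Mmp14*, *Mmp19* and *Mmp23*) were taken as a named list and matched by Ensembl ID, and all 10 were found among the 32285 genes of the files. They are 10 of the 22 mouse family genes found there. Wounded skin of C57BL/6J male adult mice with no other genotype or treatment was taken at Day 3, Day 7 or Day 14 after wounding and dissociated with enzymes, and the unsorted cells were captured in droplets for single-cell mRNA sequencing. There was 1 library per day, each of tissue pooled from several wounds, so there are no replicates and no test, and unwounded skin was not analysed here. Ratios between days compare 2 libraries and cannot be told apart from differences between those libraries. Every interval given is a 95% interval that covers counting error only (exact Poisson for levels, Clopper-Pearson for shares, exact conditional binomial for ratios).

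Most metalloproteinases are made as inactive precursors that are held closed by their own propeptide and are opened by other proteinases, and tissue inhibitors of metalloproteinases (TIMPs) block the open enzymes. In healing skin the family is known for clearing damaged matrix, for letting cells move through the provisional matrix and for reshaping new collagen. mRNA counts say nothing of whether an enzyme was made as protein, secreted or opened, so all statements below are on transcripts.

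After filters and removal of doublets, 4360, 19590 and 13510 cells remained on Days 3, 7 and 14, 37460 in all. They were grouped into 38 clusters and 10 cell classes, which were named from marker genes and carry the ending -like. The 10 genes, their relatives and their regulators were left out of the genes used for clustering. Fibroblast-like cells numbered 404, 5939 and 6670, macrophage-like cells (with monocytes) 2578, 8734 and 2972, and neutrophil-like cells 869, 1648 and 21. In every class with at least 20 cells on a day, all of its markers were higher than in the other cells. In 3 clusters the 10 leading genes held 1 marker of another class and none of the cluster's own, *Mlana* in cluster 9 and *Crabp1* in cluster 12 (both fibroblast-like, with all 8 fibroblast markers raised) and *Dct* in cluster 31 (macrophage-like, with all 10 macrophage markers raised). For the results that turn on these classes, values within clusters or without these clusters are given as well. Levels are CPM, UMIs of the gene divided by all UMIs of the cells summed and multiplied by 10 to the power of 6, where a unique molecular identifier (UMI) marks 1 captured mRNA molecule. Fibroblast-like cells of Day 3 had a median of 44305.5 UMIs against 10327 and 10205 on Days 7 and 14, and the part that this depth had in the ratios was not tested. The libraries shared 43 barcodes between Days 3 and 7, 19 between Days 3 and 14 and 111 between Days 7 and 14.

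The 10 genes together held 51627, 227455 and 206403 UMIs on Days 3, 7 and 14, or 1467, 2263 and 2116 CPM of the kept cells. Fibroblast-like cells held 72.5%, 86.1% and 91.1% of these UMIs, and macrophage-like cells 23.3%, 10.5% and 5.06%. For comparison, fibroblast-like cells held 55.7%, 63.4% and 71.4% of all UMIs of any gene, and macrophage-like cells 34.1%, 26.0% and 12.4%. By the class with most UMIs, 5 enzymes belonged to fibroblast-like cells, 4 to macrophage-like cells and 1 to neutrophil-like cells on Day 3, and 7 to fibroblast-like and 3 to macrophage-like cells on Day 7. On Day 14 it was 6 and 3, with *Mmp13* at 73 UMIs in each of both classes. Fibroblast-like cells held over 50% of the UMIs of 5, 6 and 6 of the 10 genes on Days 3, 7 and 14. Of all genes tested the same was true for 63.4%, 72.2% and 76.4%, so the count of members in fibroblast-like cells was not above the share among genes in general. Macrophage-like cells held over 50% of the UMIs of 4, 2 and 3 of the 10 genes, against 18.3%, 10.1% and 4.64% of all genes tested (*Mmp8*, *Mmp12*, *Mmp13* and *Mmp19* on Day 3, *Mmp8* and *Mmp12* on Day 7, *Mmp9*, *Mmp12* and *Mmp19* on Day 14). These counts depend on the way of classing. With a class given to each cell without clusters they were 1 (*Mmp13*), 1 (*Mmp12*) and 0. In that setting a cell was left unnamed when a second class scored at least 0.75 of its best, or when none scored above 0. UMIs of unnamed cells stayed in the totals, so a lower share need not mean that another named class held more. The share of *Mmp19* lay near the middle on every day, with intervals of 49.96 to 52.6, 48.9 to 50.7 and 49.2 to 51.1%.

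**Figure D1:**
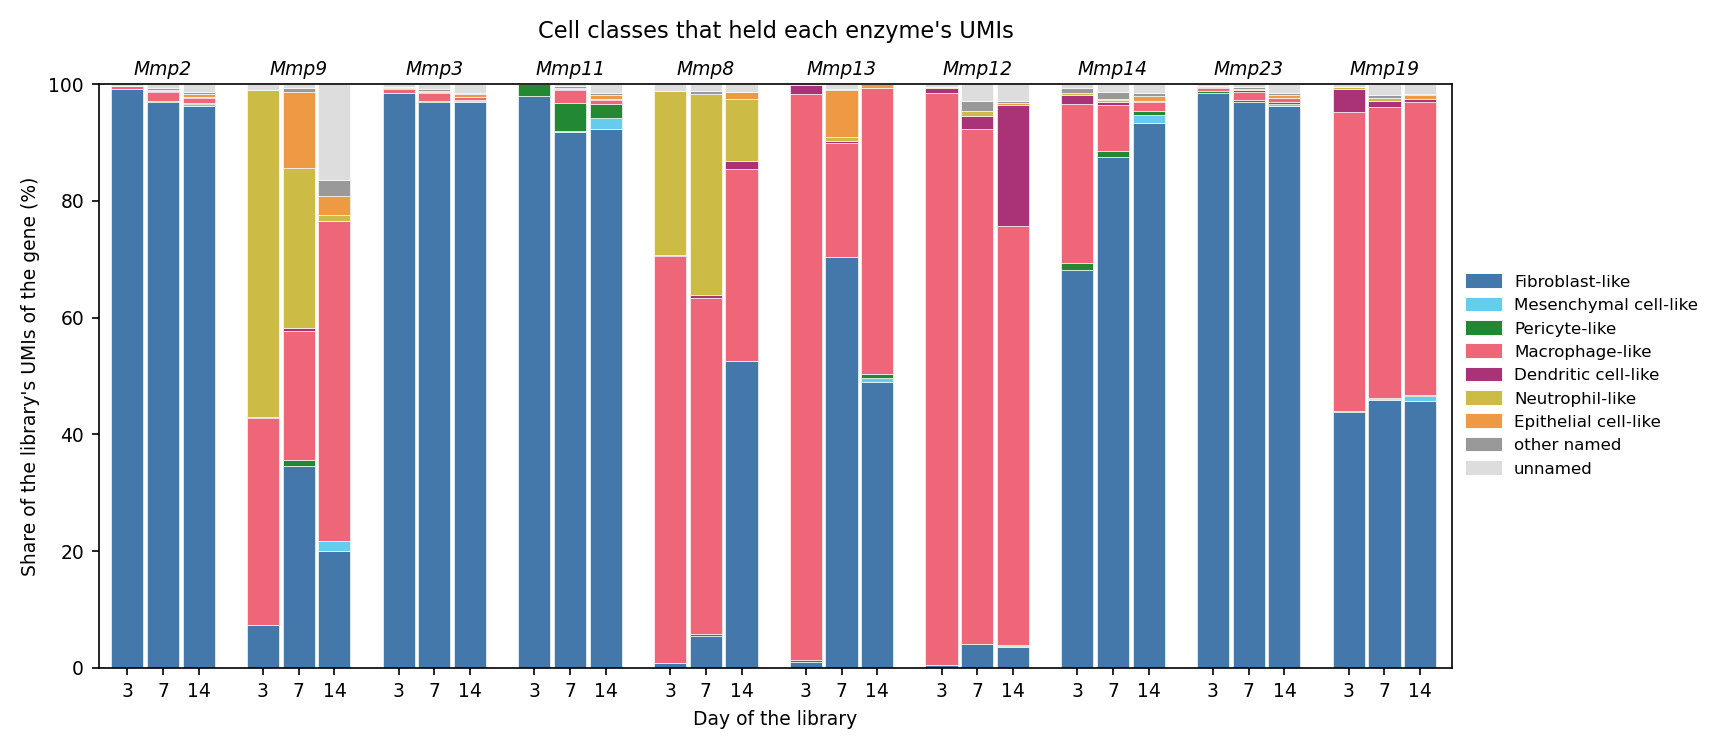
Share of each gene's UMIs (%, y axis) held by each cell class in the Day 3, 7 and 14 libraries (x axis), for the 10 enzymes grouped by role. With cells classed by cluster, *Mmp2*, *Mmp3*, *Mmp11* and *Mmp23* are at 91.9% or more in fibroblast-like cells (*Mmp11* of Day 7 at 54.35% with each library clustered alone), and the class with most UMIs differs between days for *Mmp8*, *Mmp9* and *Mmp13*.

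4 of the 10 genes lie in 1 block of family genes on mouse chromosome 9 that holds 10 family genes over 427 kb (7272514 to 7699585, GRCm38, GENCODE annotation). In their order along the plus strand these are *Mmp13* (7272514 to 7283331), *Mmp12* (7344381 to 7369499), *Mmp3* (7445822 to 7455975) and *Mmp8* (7558456 to 7568485). These neighbours did not share a main source when cells were classed by cluster. On Day 3 *Mmp13*, *Mmp12* and *Mmp8* had 97.015%, 98.0% and 69.8% of their UMIs in macrophage-like cells, and *Mmp3* had 98.5% in fibroblast-like cells. The bases just upstream of their starts are shown because these neighbours differ both in source and in the AP-1 motif. Each window holds 250 bases upstream of a RefSeq transcript start (GRCm38.p6, plus strand, 5′ to 3′), with the motif TGANTCA, which reads the same on both strands, in capitals. For *Mmp12* the window of its second start is printed, which lies inside the annotated gene. The window at the annotated gene start (7344147 to 7344396) is without the motif and is not printed.
*Mmp13*, chr9:7272264-7272513: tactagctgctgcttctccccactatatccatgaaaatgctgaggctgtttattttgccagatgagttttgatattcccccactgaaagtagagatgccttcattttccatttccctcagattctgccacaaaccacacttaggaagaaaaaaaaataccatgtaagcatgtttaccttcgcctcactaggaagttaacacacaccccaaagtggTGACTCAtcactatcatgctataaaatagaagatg
*Mmp12*, chr9:7347124-7347373: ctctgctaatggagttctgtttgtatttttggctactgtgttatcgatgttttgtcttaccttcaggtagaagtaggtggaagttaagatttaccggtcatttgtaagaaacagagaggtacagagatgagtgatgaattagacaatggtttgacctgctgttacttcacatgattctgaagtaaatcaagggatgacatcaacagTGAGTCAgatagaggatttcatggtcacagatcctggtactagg
*Mmp3*, chr9:7445572-7445821: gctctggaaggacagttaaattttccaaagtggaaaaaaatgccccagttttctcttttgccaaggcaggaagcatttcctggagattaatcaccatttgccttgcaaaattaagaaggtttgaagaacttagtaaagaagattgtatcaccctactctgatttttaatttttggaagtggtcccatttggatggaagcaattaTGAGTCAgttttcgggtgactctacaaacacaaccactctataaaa
*Mmp8*, chr9:7558179-7558428: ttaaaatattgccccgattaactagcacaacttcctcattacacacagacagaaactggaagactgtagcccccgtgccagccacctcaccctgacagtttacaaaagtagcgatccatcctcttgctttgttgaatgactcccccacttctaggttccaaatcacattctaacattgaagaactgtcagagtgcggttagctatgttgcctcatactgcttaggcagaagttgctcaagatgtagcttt

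The motif began 35 bases upstream of the start in *Mmp13*, 44 in *Mmp12* and 46 in *Mmp3*, and these letters were not in the *Mmp8* window or in that of the other *Mmp12* start. Of the 10 genes, 7 had a window in the table, and 3 of those 7 (42.9%) held the motif. Among all genes with a window it was held by 2113 of 27025 (7.82%). *Mmp11*, *Mmp14* and *Mmp23* had windows without it, and *Mmp2*, *Mmp9* and *Mmp19* had no entry. A match of letters is a description and shows no binding. With cells classed by cluster, the genes with the motif were the fibroblast-held *Mmp3*, the largely macrophage-held *Mmp12* and *Mmp13*, whose main source on Day 7 depended on the clustering.

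The gelatinases cut denatured collagen and the collagen of basement membranes. *Mmp2* (chromosome 8, 92827291 to 92853420), the gelatinase that many stromal cells make without stimulation, was at 387 CPM in fibroblast-like cells on Day 3 (378 to 396), 966 on Day 7 (959 to 974) and 804 on Day 14 (798 to 811). Fibroblast-like cells held 99.15%, 96.95% and 96.2% of its UMIs. The Day 7 level was the highest of the 3 libraries, with log2 ratios of 1.32 for Day 7 over Day 3 (1.29 to 1.36) and -0.26 for Day 14 over Day 7. Within the clusters present on Days 3 and 7 the first ratio was smaller, 0.73 in cluster 22 (led by the cell cycle genes *Ube2c* and *Top2a*) and 0.41 in cluster 25 (led by *Saa3* and *Cxcl5*). The other fibroblast-like clusters had under 20 cells on Day 3. In clusters with at least 50 cells on Day 7 the levels ran from 515 CPM in cluster 22, 601 in cluster 25 and 622 in cluster 12 to 1453 in cluster 15 (led by *Cxcl13*, *Smpd3* and *C3*). *Mmp2* was held by most fibroblast-like cells, though its level differed between clusters. With cells thinned to 2000 UMIs, 77.6% of Day 7 fibroblast-like cells held at least 1 UMI, and the variance was 1.54 times the mean.

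*Mmp9* (chromosome 2, 164940780 to 164955850), the gelatinase that neutrophils store in granules, differed from *Mmp2* in its sources. Over the whole of the kept cells it was at 31.1, 16.1 and 2.93 CPM on Days 3, 7 and 14. Neutrophil-like cells had 519 CPM on Day 3 (479 to 562) and 338 on Day 7 (308 to 371), a log2 ratio of -0.62. On Day 14 the 21 neutrophil-like cells held 3 UMIs of the gene. Neutrophil-like cells held 56.0% of *Mmp9* UMIs on Day 3 (53.0 to 59.0) and macrophage-like cells 35.4%. On Day 7 no class held a majority. Fibroblast-like cells held 34.6% at 8.79 CPM, neutrophil-like cells 27.4%, macrophage-like cells 22.1% and epithelial-like cells 12.98%. The fibroblast-like share was 20.8% with each library clustered alone. The fibroblast-like clusters other than 9 and 12 held 14.5% of the same Day 7 total. On Day 14, of what little remained, macrophage-like cells held 54.9% at 12.99 CPM (38.1% with a class given to each cell), fibroblast-like cells 19.9% on 57 UMIs and the unnamed clusters together 16.4%. The macrophage-like level was 6.22% of the neutrophil-like one on Day 3 (5.46 to 7.07) and 4.05% on Day 7 (3.52 to 4.67). That was above 7 of the 8 neutrophil markers on the same measure (at most 1.18% and 1.14%) and below 1, *Csf3r* (7.25% and 5.79%), and the part of background in it was not tested further. The fibroblast-like level was 0.796% on Day 3, within the range of those markers (at most 0.996%), and 2.60% on Day 7 (2.29 to 2.95), above all of them (at most 1.85%).

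The spread of *Mmp9* over cells was uneven outside neutrophil-like cells. In macrophage-like cells of Day 7, 121 of 358 UMIs were in 1 cell, and the level without that cell was 9.08 CPM (7.96 to 10.3). The Day 7 epithelial-like class was only 41 cells, of which 12 held 210 UMIs, a level of 565 CPM (491 to 647), or 429.7 without the cell that held most. The 721 epithelial-like cells of Day 14 were at 1.84 CPM. Among macrophage-like clusters the Day 3 level was 45.1 CPM in cluster 0, 43.1 in cluster 4 and 40.8 in cluster 3 (led by *Cbr2*, *Cd163* and *Ednrb*), with intervals that overlapped, and lower in cluster 14 at 11.7 (8.78 to 15.3) and in cluster 2 at 2.28 (0.058 to 12.7, 1 UMI). Cluster 3 was at 11.3 CPM on Day 7 and 43.7 on Day 14. After thinning every cell to 500 UMIs, 21.98% of neutrophil-like cells of Day 3 and 14.6% of Day 7 held a UMI (38.2% and 20.2% before thinning). In fibroblast-like cells the thinned shares were 0.25% and 0.42%, with median depths of 44305.5 and 10327 UMIs against 1227 and 711 in neutrophil-like cells.

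**Figure D2:**
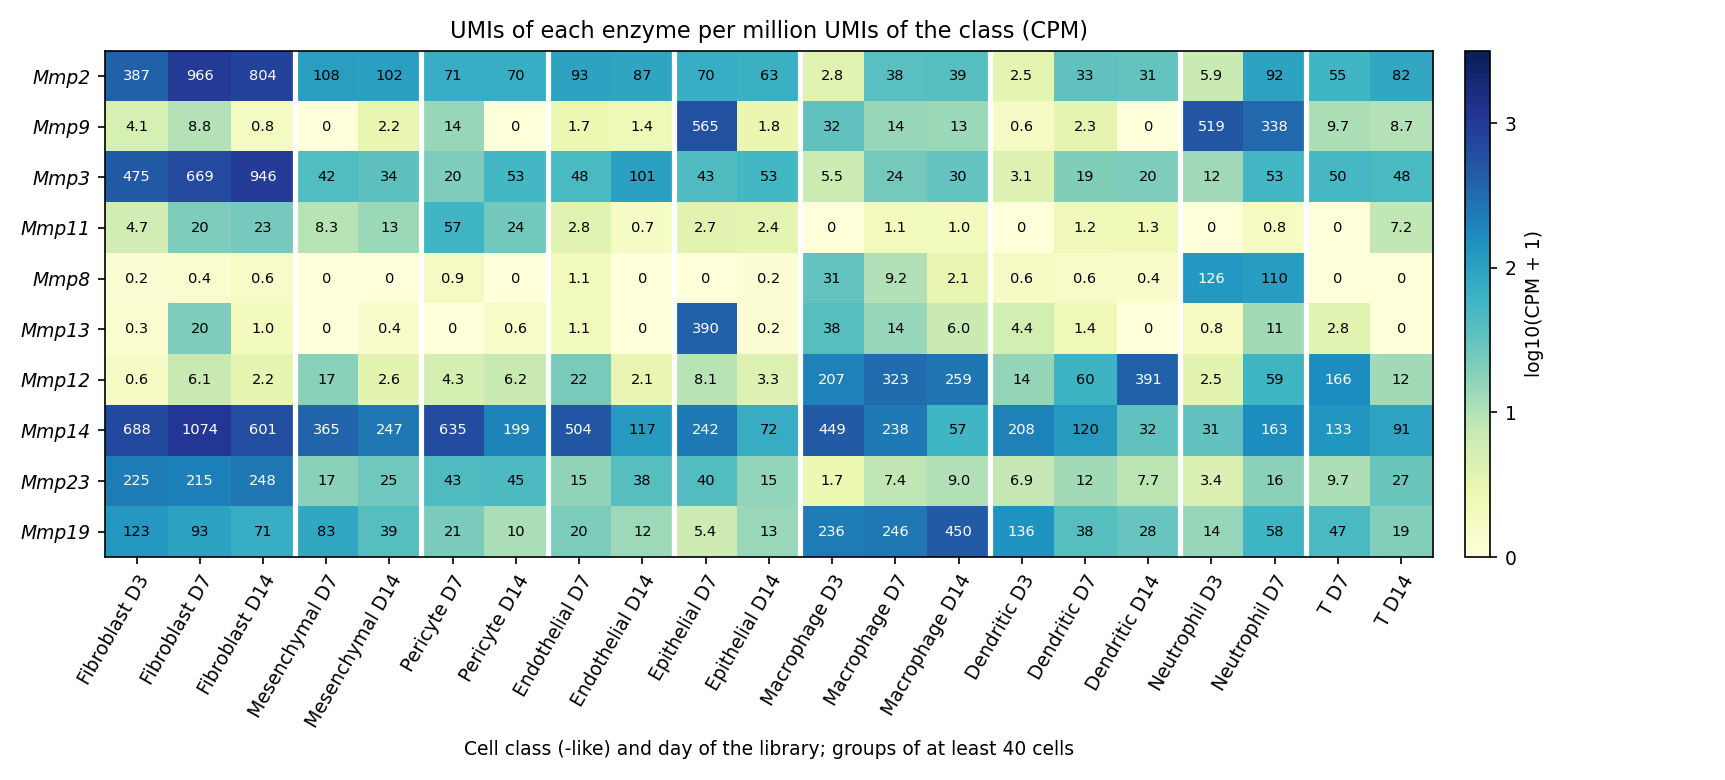
CPM of the 10 enzymes (rows) in each cell class and library with at least 40 cells (columns), coloured by log10(CPM + 1) with the CPM printed in each field. *Mmp14* is at 31.4 CPM or more in every column, while *Mmp8* passes 10 CPM only in macrophage-like cells of Day 3 and in neutrophil-like cells.

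The stromelysins cut proteoglycans, fibronectin and other matrix glycoproteins and can open other metalloproteinases. *Mmp3*, stromelysin 1, was at 475 CPM in fibroblast-like cells on Day 3 (466 to 485), 669 on Day 7 (663 to 676) and 946 on Day 14 (939 to 953). Fibroblast-like cells held 98.5%, 96.98% and 97.01% of its UMIs. The level of the class was thus higher in each later library, by 0.49 and 0.50 log2 units. This order was not found within clusters. For Day 7 over Day 3 the ratio was -0.33 in cluster 22 and -0.27 in cluster 25. For Day 14 over Day 7 it was 0.03 (interval -0.04 to 0.11) in cluster 1 (led by *Cilp*, *Mgp* and *Thbs4*), -0.09 in cluster 6 (led by *Akr1c18* and *Pi16*), -0.35 in cluster 9 (led by *C7*, *C6* and *Gdf10*) and -1.26 in cluster 15. The make-up of the class differed between libraries at the same time. Cluster 1, at 1056 and 1080 CPM on Days 7 and 14, was 2.46% of fibroblast-like cells on Day 7 and 45.04% on Day 14, while cluster 12, at 333 CPM on Day 7, was 20.7% and 0.585%. *Mmp3* also varied more between cells than *Mmp2*. With cells thinned to 2000 UMIs its variance was 3.04, 3.64 and 3.49 times the mean in fibroblast-like cells on the 3 days, and 45.9% of Day 7 cells held a UMI.

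*Mmp11* (chromosome 10, 75923222 to 75936496), stromelysin 3, which is opened inside the cell by furin and is known from stroma around tumours, was at 4.74 CPM in fibroblast-like cells on Day 3 (3.83 to 5.81), 19.9 on Day 7 (18.8 to 21.0) and 22.8 on Day 14 (21.7 to 24.0). Of the 93 UMIs of Day 3, 30 were in 1 cell. Within clusters the log2 ratio of Day 7 over Day 3 was 3.24 in cluster 22 (2.49 to 4.08). In cluster 25 it was 0.64, with an interval on both sides of 0 (-0.27 to 1.49). For Day 14 over Day 7 it was -0.82 in cluster 1 and -1.11 in cluster 15, against 0.20 for the class. In clusters 6 and 9 it was 0.35 and -0.13, with intervals on both sides of 0. Pericyte-like cells, which wrap small vessels, had a higher level of *Mmp11* than fibroblast-like cells on Day 7, with 57.0 CPM (44.2 to 72.4), and a like one on Day 14, with 24.2 (17.5 to 32.6). Among fibroblast-like clusters with at least 50 cells in the library the level was highest in cluster 12 on Day 7 (39.6 CPM). On Day 14 it was highest there in cluster 11 (led by *Igfbp2* and *Gal*, 70.4 CPM), and smaller clusters were not ranked. Those clusters held 42.4% of the class's *Mmp11* UMIs on Day 7 and 50.7% on Day 14, with 20.7% and 19.5% of its cells.

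The collagenases make the first cut in fibrillar collagen. *Mmp8*, the collagenase of neutrophil granules, had few UMIs in all, 14.97, 4.16 and 0.779 CPM of the kept cells on Days 3, 7 and 14. Its level was highest in neutrophil-like cells, with 126 CPM on Day 3 (106 to 148) and 110 on Day 7 (92.6 to 129), a log2 ratio of -0.19 (-0.54 to 0.15). The 8 UMIs of Day 14 were 7 in 1 cell and 1 in another of the 21 neutrophil-like cells. Macrophage-like cells were at 30.7, 9.23 and 2.07 CPM on Days 3, 7 and 14, and being more numerous and deeper they held 69.8% and 57.7% of the UMIs of Days 3 and 7 (44.6% and 37.6% with a class given to each cell). These levels were 24.4% and 8.41% of those in neutrophil-like cells, above each of the 8 neutrophil markers on the same measure (at most 7.25% and 5.79%). On Day 14, 40 of 76 *Mmp8* UMIs were in fibroblast-like cells, and 37 of those 40 were in cluster 11, which had 19.5% of the cells of the class.

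*Mmp13*, the main collagenase of mouse interstitial collagen, had a different main source on Days 3 and 7 when cells were classed by cluster. On Day 3 macrophage-like cells were at 37.9 CPM (34.5 to 41.6) and held 97.015% of its UMIs (95.04 to 98.4; 56.9% with a class given to each cell), and the 404 fibroblast-like cells held 5 UMIs (0.255 CPM). On Day 7 fibroblast-like cells were at 20.1 CPM (19.0 to 21.2) and held 70.5% (68.3 to 72.5), and macrophage-like cells were at 13.5 CPM. That Day 7 share was 29.5% with each library clustered alone. The fibroblast-like clusters other than 9 and 12 held 14.2% of the same Day 7 total. On Day 14 both classes held 73 UMIs, 49.0% each, at 1.05 CPM in fibroblast-like and 6.04 in macrophage-like cells. The ratio of Day 7 over Day 3 in fibroblast-like cells was 6.30 log2 units (5.07 to 7.92), and that of Day 14 over Day 7 was -4.26. In macrophage-like cells both ratios were below 0, at -1.49 and -1.16. Its clusters did not all move this way. For Day 7 over Day 3, cluster 2 went from 0 UMIs in 130 cells to 59 in 2110 (lower end of the log2 interval 0.29). The ratio was below 0 in clusters 0, 3 and 4 (-0.91, -2.73 and -0.94). It was 1.37 in cluster 14 (0.54 to 2.14), on 58 UMIs in 825 cells and 19 in 200, where 3.76% and 3.5% of cells held a UMI. For Day 14 over Day 7 it was -1.03 in cluster 5 and 0.53 in cluster 2 (-0.22 to 1.24).

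The fibroblast-like *Mmp13* of Day 7 was concentrated in few cells. Cluster 12, led by *Tnn*, *Prss35*, *Col12a1*, *Acta2* and *Tnc*, held 76.45% of the UMIs of the class with 20.7% of its cells, at 72.1 CPM. After thinning to 2000 UMIs, 1.72% of Day 7 fibroblast-like cells held a UMI and the variance was 7.37 times the mean, and 1 cell held 181 of the 1278 unthinned UMIs (17.2 CPM without it). The fibroblast-like clusters other than 9 and 12 held 14.2% of all kept *Mmp13* UMIs of Day 7, 14.5% of those of *Mmp9* and 48.3% of those of *Mmp11*. The UMIs of clusters 9, 12 and 31 stayed in these totals, so the shares are not those among the remaining cells. With clusters 9, 12 and 31 left out of the classes the log2 ratios of *Mmp13* were 4.45 and -2.69. In cluster 22, present on Days 3 and 7, *Mmp13* went from 2 to 80 UMIs (log2 ratio 5.97, 4.07 to 9.04). On Day 3 the macrophage-like UMIs were also concentrated, with 79.3% of them in cluster 4 (led by *Arg1*, *Cxcl3* and *Spp1*), which had 49.65% of the cells and a level of 72.0 CPM.

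*Mmp13* was highest per cell class in the 41 epithelial-like cells of Day 7, where 10 cells held 145 UMIs (390.15 CPM) and 1 of them 68 (216.7 CPM without it). Of these 10 cells, 6 also held *Mmp9*, against 12 of all 41. In fibroblast-like cells of Day 7, 21 of the 197 cells with *Mmp13* (10.7%) also held *Mmp9*, against 5.29% of all cells of the class, and the 21 cells had a median of 12328 UMIs against 10327 for the class.

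**Figure D3:**
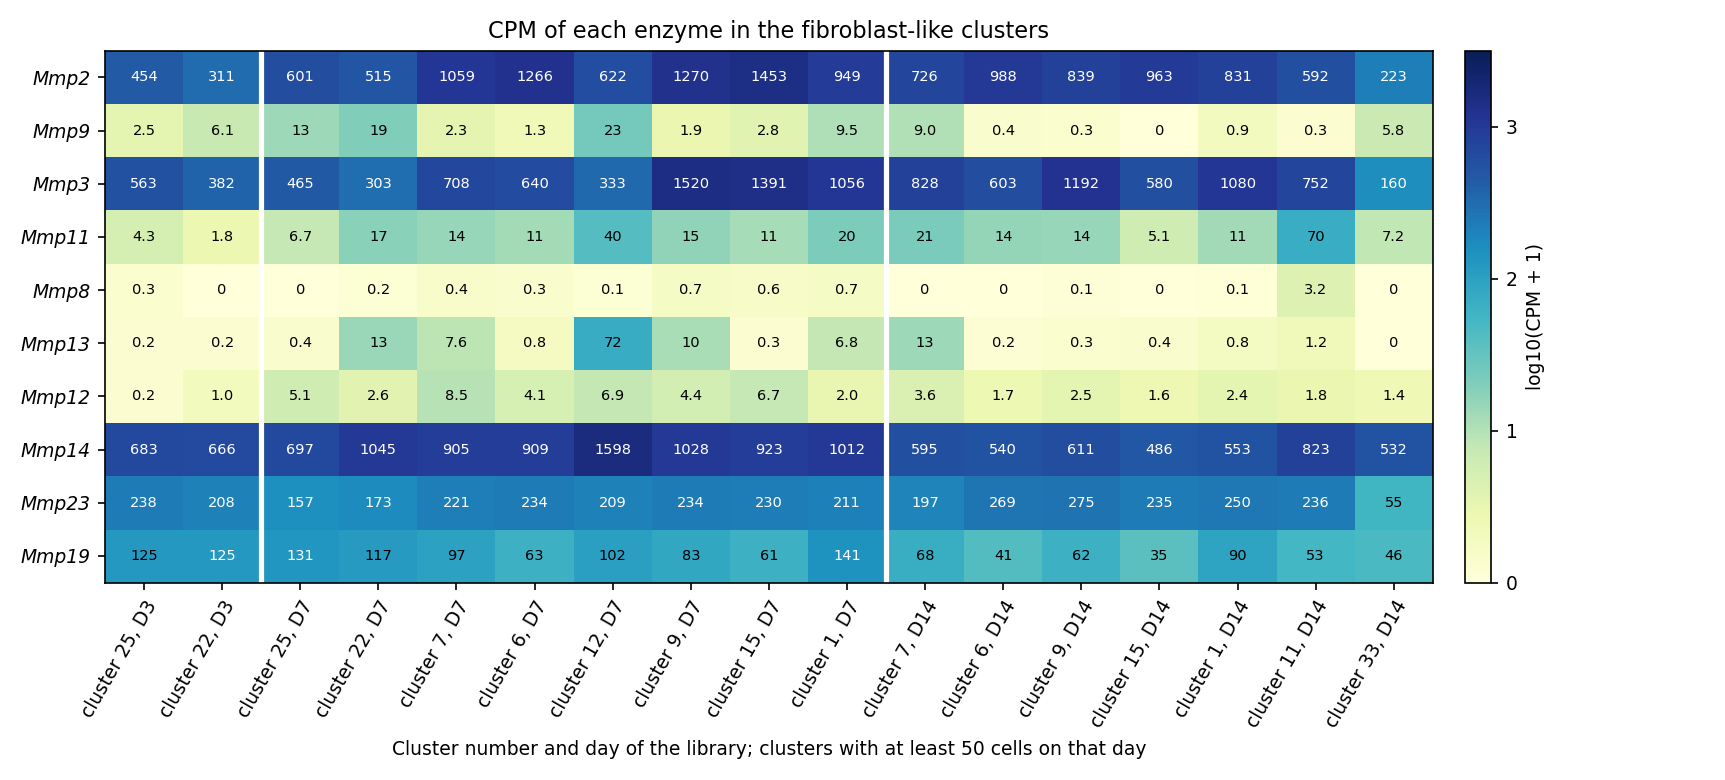
CPM of the 10 enzymes (rows) in the fibroblast-like clusters with at least 50 cells in the library (columns, by day), coloured by log10(CPM + 1) with the CPM printed. On Day 7 cluster 12 has the highest *Mmp14* (1598), *Mmp13* (72.1) and *Mmp11* (39.6), and clusters 9 and 15 the highest *Mmp3* (1520 and 1391).

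*Mmp12*, the macrophage elastase, was at 207 CPM in macrophage-like cells on Day 3 (199 to 216), 323 on Day 7 (316 to 330) and 259 on Day 14 (250 to 268). Macrophage-like cells held 98.0%, 88.2% and 71.7% of its UMIs when classed by cluster, and 40.75%, 57.5% and 39.4% with a class given to each cell. Dendritic-like cells were at 14.4, 60.1 and 391 CPM on Days 3, 7 and 14 (the last with an interval of 366 to 417), and on Day 14 they held 20.8% of the UMIs. Within cluster 10, which held 907 of the 909 dendritic-like UMIs of Day 14, the log2 ratios were 2.11 and then 2.62, so both later libraries were higher. The marker score of cluster 10, on which it was named, was 2.49 for dendritic cells and 1.74 for macrophages. It was thus less set apart from macrophages than dendritic-like cluster 23 (3.27 and 0.725), which was at 5.88 CPM on Day 14. In fibroblast-like cells *Mmp12* was at 0.612, 6.09 and 2.24 CPM, or 0.295%, 1.89% and 0.866% of the macrophage-like level. That was not above the range of the 10 macrophage markers on this measure, so these UMIs could not be told apart from background.

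*Mmp12* was unevenly spread over macrophage-like cells. With cells thinned to 2000 UMIs the variance was 27.8, 19.8 and 11.2 times the mean, and 4.89%, 9.41% and 8.21% of cells held a UMI. 1 cell held 406 of the 2488 UMIs of Day 3, and without it the level was 174 CPM. Between macrophage-like clusters the Day 7 level ran from 20.4 CPM in cluster 3 to 664 in cluster 0 (led by *Cd36*, *Mmp12* itself and *Hmox1*). Cluster 0 held 20.3%, 73.9% and 31.6% of the class's *Mmp12* UMIs and 5.78%, 34.3% and 3.10% of its cells, and cluster 4 held 77.1% on Day 3. The clusters did not move together. For Day 7 over Day 3, cluster 3 went from 0 UMIs in 164 cells to 92 in 1501. The log2 ratio for these days was 0.64 for the class. It was -0.05 in cluster 0 (-0.19 to 0.08), -0.30 in cluster 4, 1.44 in cluster 2 and 3.45 in cluster 14. For Day 14 over Day 7 it was 1.86 in cluster 2 (led by *Cx3cr1*, *Ly6c2* and *Ccr2*), 0.09 in cluster 19 (led by *Retnla* and *Lyz1*), -0.88 in cluster 3 and -0.80 in cluster 5 (led by *Ccl8*, *Slamf7* and *Il10*), against -0.32 for the class. Cluster 0, with 92 cells on Day 14, was at 2829 CPM there (2655 to 3011), the highest *Mmp12* level among macrophage-like clusters with at least 50 cells in a library. The T cell-like class of Day 7 was at 166 CPM, of which 105 of 120 UMIs were in 1 cell (20.9 CPM without it).

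The membrane-bound members act on the cell surface. *Mmp14* (chromosome 14, 54431612 to 54445364), known as MT1-MMP, which cuts collagen around the cell and opens proMMP2, had the most UMIs of the 10 genes, 142815 over the 3 libraries. In fibroblast-like cells it was at 688 CPM on Day 3 (677 to 700), 1074 on Day 7 (1065 to 1082) and 601 on Day 14 (595 to 606), with log2 ratios of 0.64 and -0.84. In macrophage-like cells it was at 449, 238 and 56.7 CPM, lower in each later library, with log2 ratios of -0.92 (-0.97 to -0.86) and -2.07 (-2.19 to -1.96). The share of its UMIs in fibroblast-like cells was 68.1%, 87.5% and 93.4%, and that in macrophage-like cells 27.2%, 7.96% and 1.53%. After thinning to 500 UMIs, 20.4%, 11.8% and 2.69% of macrophage-like cells held an *Mmp14* UMI (58.4%, 41.2% and 16.8% before thinning). In neutrophil-like cells the shares after thinning were 1.61% on Day 3 and 7.40% on Day 7. Their Day 7 level was 15.2% of that in fibroblast-like cells. Its interval (13.2% to 17.4%) reached the range of the 8 fibroblast markers there (7.15% to 14.0%), so the level could not be told apart from background. On Day 3 it was 4.56%, above those markers (at most 2.89%), on 37 UMIs. The median depths of neutrophil-like cells were 1227 and 711 UMIs, and those of macrophage-like cells 4200.5, 2669.5 and 3700.5.

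The Day 14 level of *Mmp14* was lower than that of Day 7 in most clusters that could be compared. Of 12 clusters of named classes with at least 100 cells in both libraries, 11 had a ratio below 0 with their whole interval, and the interval of 1, the T cell-like cluster 20, reached both sides of 0. The ratios were -0.93 to -0.75 in the 4 fibroblast-like clusters, -1.67 to -1.06 in the 4 macrophage-like clusters, -1.68 in the pericyte-like, -1.49 in the endothelial-like and -2.15 in the dendritic-like cluster. The unnamed clusters 13 and 18 were lower as well (-1.53 and -1.19). Of the 10 clusters outside the fibroblast-like class, 7 stood above all 8 fibroblast markers on Day 7, as a percent of the fibroblast-like level, and 4 on both days (macrophage-like clusters 2, 3 and 5 and the endothelial-like cluster). Macrophage-like cluster 19 (4.65% and 3.98%, markers up to 5.832% and 3.998%) and the T cell-like cluster on both days, and the dendritic-like and both unnamed clusters on Day 14, were within the range of the markers or had an interval that reached it. In the pericyte-like cluster the markers ranged widely (4.75 to 79.8% on Day 7 and 4.42 to 49.3% on Day 14, highest for *Col6a1*), and *Mmp14*, at 59.15% and 33.1%, was above their medians of 13.55% and 9.72%. For Day 7 over Day 3 the clusters differed in direction. *Mmp14* was 0.65 log2 units higher in fibroblast-like cluster 22 and near the same level in cluster 25 (0.03, -0.05 to 0.10). It was lower in 4 of 5 macrophage-like clusters, with ratios from -0.70 to -0.60, and in cluster 14 the ratio was -0.11 with an interval on both sides of 0 (-0.35 to 0.12). Among macrophage-like clusters with at least 50 cells the Day 3 level was highest in the *Arg1*-led cluster 4 (656 CPM), close to that of fibroblast-like cells (688).

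*Mmp23* (chromosome 4, 155650655 to 155653384), which is anchored in the membrane by its N-terminus and released by furin-type cleavage, had similar levels in the fibroblast-like class on all 3 days. Fibroblast-like cells were at 225 CPM on Day 3 (218 to 231), 215 on Day 7 (211 to 218) and 248 on Day 14 (244 to 252), and held 98.5%, 96.9% and 96.2% of its UMIs. The Day 14 over Day 7 ratio was 0.03 to 0.24 within 4 clusters, and the Day 7 over Day 3 ratio was -0.26 in cluster 22 and -0.60 in cluster 25, both with intervals below 0. The clusters with at least 100 cells ran from 157 to 234 CPM on Day 7. On Day 14 those with at least 50 cells ran from 54.7 CPM in the 73 cells of cluster 33 to 275 in cluster 9. With cells thinned to 2000 UMIs its variance in fibroblast-like cells was 0.96, 1.06 and 1.14 times the mean, close to what counting alone gives.

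*Mmp19* (chromosome 10, 128790910 to 128800824), a secreted member that cuts basement membrane proteins, was shared between classes in nearly equal parts on all 3 days when cells were classed by cluster (with a class given to each cell alone the macrophage-like share was 35.8%, 36.3% and 30.5%). Macrophage-like cells held 51.3%, 49.8% and 50.1% of its UMIs and fibroblast-like cells 43.8%, 45.9% and 45.7%. The levels behind these steady shares moved apart. In macrophage-like cells they were 236 CPM on Day 3 (227 to 245), 246 on Day 7 (240 to 252) and 450 on Day 14 (438 to 462), and in fibroblast-like cells 123, 93.0 and 71.2. The Day 14 over Day 7 ratio of 0.87 in macrophage-like cells was larger than in the 4 clusters with at least 100 cells in both libraries, which gave 0.12 (cluster 2), 0.63 (cluster 3), 0.24 (cluster 5) and 0.03 (cluster 19). Clusters 5 and 19 had high levels (490 and 569 CPM on Day 7, 577 and 579 on Day 14), and they were 8.30% and 2.78% of macrophage-like cells on Day 7 and 44.0% and 16.5% on Day 14. Cluster 0 was at 256 CPM on Day 7 (246 to 267) and, with only 92 cells, at 762 on Day 14 (673 to 860). In fibroblast-like cells all 4 clusters compared were lower on Day 14, by ratios from -0.79 to -0.43, whereas for Day 7 over Day 3 the class ratio of -0.41 was not met within clusters 22 and 25 (-0.09 and 0.08, both intervals on both sides of 0). On the opposite strand *Mmp19* overlaps *Gm47093* and *Tmem198b*, *Mmp11* overlaps *Chchd10*, and *Mmp12* overlaps *Mmp1b*.

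**Figure D4:**
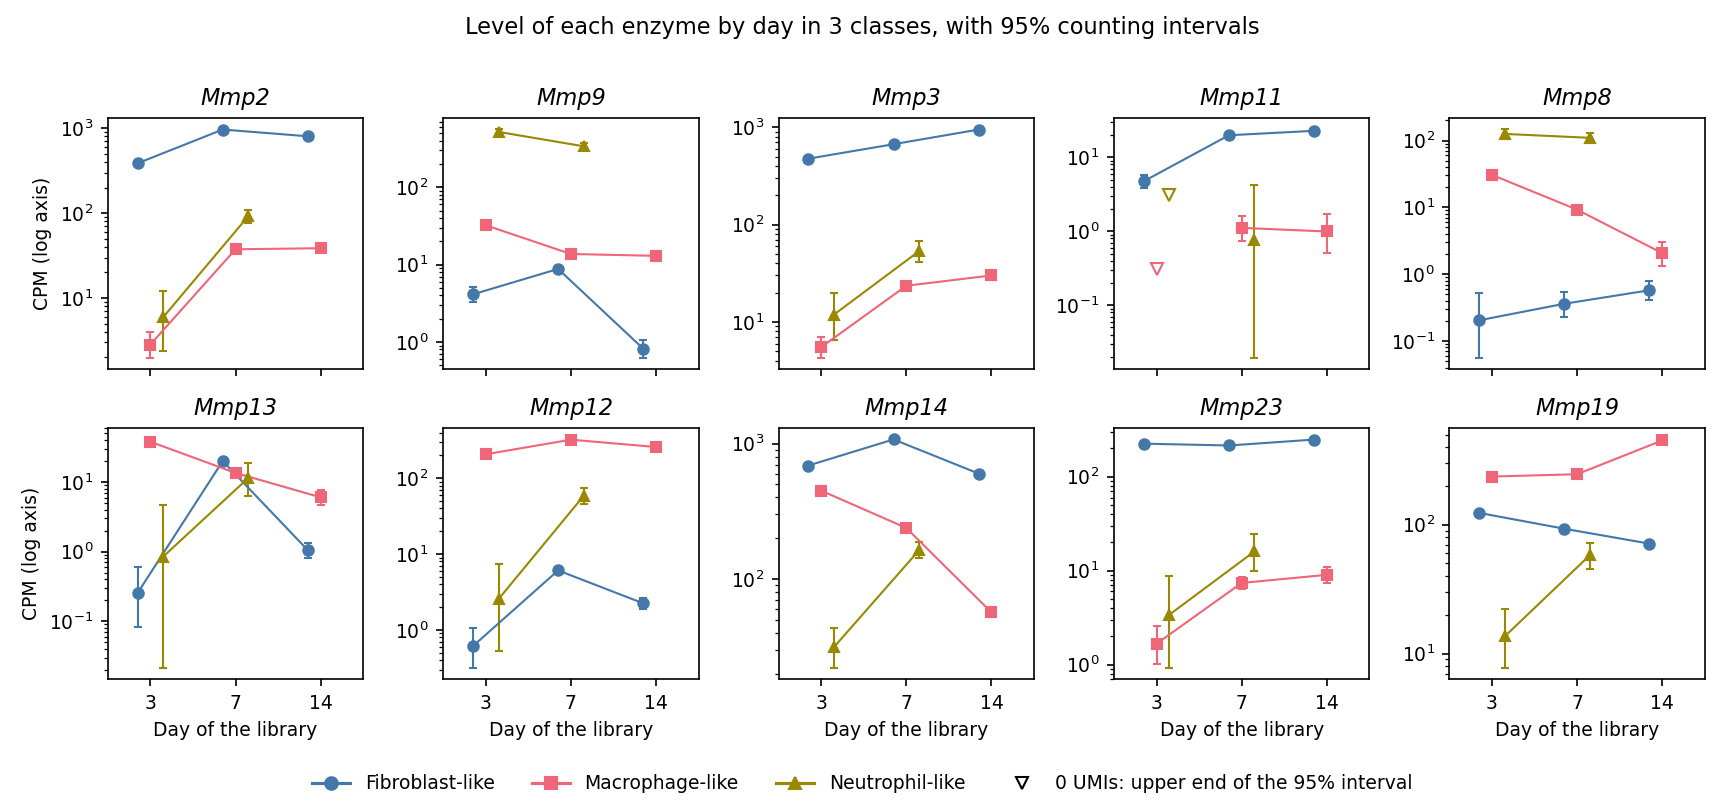
CPM of each enzyme (log y axis) on Days 3, 7 and 14 (x axis) in fibroblast-like, macrophage-like and neutrophil-like cells, with bars for the 95% counting interval, open triangles for the upper end where 0 UMIs were counted, and lines joining the 3 libraries. *Mmp14* in macrophage-like cells goes down from 449 to 56.7 CPM while *Mmp19* goes up from 236 to 450.

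Because the classes share droplet libraries, RNA of one class can be counted in cells of another, and the 8 fibroblast markers were used to measure this for the fibroblast-held enzymes. Like the macrophage and neutrophil markers used in this way, they also served to name the classes, while the enzymes were left out of clustering. The effect of this on the range of the markers was not tested. The level of these markers in macrophage-like cells, as a percent of the level in fibroblast-like cells, had a median of 0.677% on Day 3 (0.489% to 0.927%), 3.57% on Day 7 (2.61% to 4.76%) and 3.88% on Day 14 (2.73% to 4.40%). *Mmp2* was at 0.733%, 3.88% and 4.80%, *Mmp3* at 1.16%, 3.52% and 3.17%, and *Mmp23* at 0.743%, 3.45% and 3.64%, each within the range of the markers or with an interval that reached it. Their UMIs in macrophage-like cells could not be told apart from such background on any day. *Mmp14* stood above all 8 markers on each day, at 65.3%, 22.2% and 9.45%, and so did *Mmp19*, at 191%, 265% and 631%. In the opposite direction, *Mmp13* in fibroblast-like cells was 0.672% of the macrophage-like level on Day 3, inside the range of the 10 macrophage markers, and 148% on Day 7 and 17.4% on Day 14, above all of them.

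**Figure D5:**
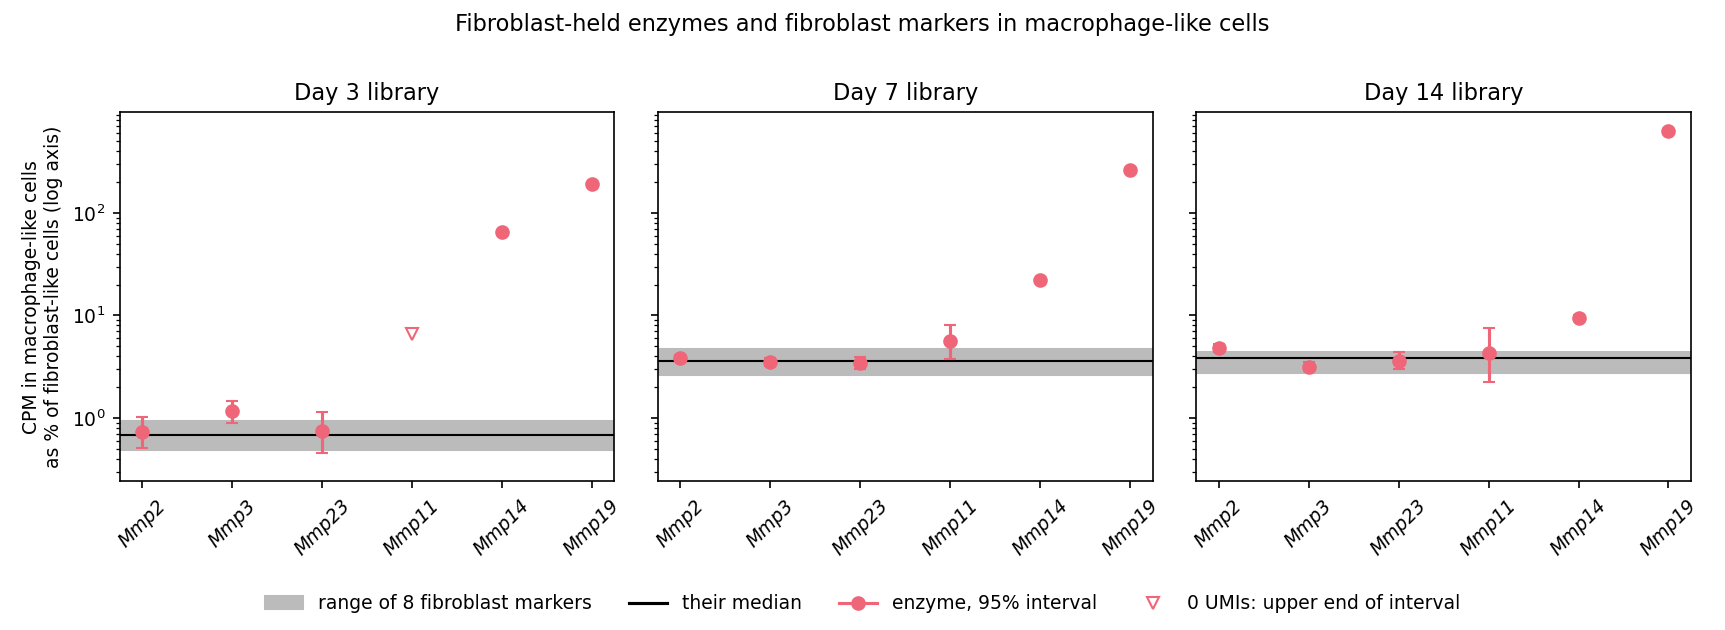
Level in macrophage-like cells as a percent of the level in fibroblast-like cells (log y axis) for 6 enzymes on each day, with 95% intervals, beside the range (grey band) and median (line) of 8 fibroblast markers. *Mmp2*, *Mmp3* and *Mmp23* lie in or at the band, and *Mmp14* (65.3%, 22.2% and 9.45%) and *Mmp19* (191%, 265% and 631%) lie above it.

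Across the 10 genes the comparison of days was summed up by counting ratios of at least 2-fold, with no test behind the count. In fibroblast-like cells 5 of 10 genes were at least 2-fold higher on Day 7 than on Day 3 (*Mmp2* 1.32, *Mmp9* 1.09, *Mmp11* 2.07, *Mmp12* 3.32 and *Mmp13* 6.30 log2 units) and 0 were lower. Of 14425 genes tested, 12.6% were higher and 10.1% lower by the same rule. The median ratio was 0.96 over the 10 genes and -0.09 over all genes. On Day 14 against Day 7, 3 of 10 were lower (*Mmp9* -3.43, *Mmp12* -1.44 and *Mmp13* -4.26) and 0 higher, against 10.6% lower and 7.44% higher of all genes, with medians of -0.32 and -0.18. *Mmp12* is counted in both directions although its level in fibroblast-like cells could not be told apart from background. Cluster 12 held 56.6% of the *Mmp9* and 76.45% of the *Mmp13* UMIs of the class on Day 7, and numbered 1228 cells on Day 7 and 39 on Day 14. Those 39 cells, 0.585% of the class, held 8 of its 57 *Mmp9* and 18 of its 73 *Mmp13* UMIs of Day 14 (14.0% and 24.7%). In cluster 1, which was present on both days, *Mmp9* and *Mmp13* were also lower on Day 14, at -3.42 (from 14 to 32 UMIs in 146 and 3004 cells) and -3.13 (from 10 to 28 UMIs). Without clusters 9, 12 and 31, which were left out after the data were seen, 4 genes were higher on Day 7 than on Day 3 (*Mmp9* at 0.30 was not among them) and 3 lower on Day 14 than on Day 7. Within clusters 22 and 25, however, *Mmp9* was higher on Day 7 than on Day 3. The log2 ratios were 1.66 in cluster 22 (1.19 to 2.14) and 2.35 in cluster 25 (1.53 to 3.19). They rested on 58 and 117 UMIs and on 23 and 32 UMIs of Days 3 and 7.

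In macrophage-like cells 4 of 10 genes were at least 2-fold higher on Day 7 than on Day 3 and 3 lower, against 12.7% and 4.89% of 12417 genes tested. The higher ones were the fibroblast-held *Mmp2* (3.73), *Mmp3* (2.096), *Mmp23* (2.15) and *Mmp11*, which went from 0 to 29 UMIs (at least 2.15 log2 units above a floor of 3 UMIs). All 4 lay within the range of the fibroblast markers on Day 7 or had an interval that reached it (*Mmp11* at 5.59%). The lower ones were *Mmp8* (-1.73), *Mmp9* (-1.23, from levels above 7 of the 8 neutrophil markers and below *Csf3r* on both days) and *Mmp13* (-1.49). Within clusters, *Mmp9* was lower in all 4 compared (-2.78 to -0.66). *Mmp8* was lower in clusters 0 and 4 (-2.72 and -1.49), and -0.22 in cluster 14 with an interval on both sides of 0. In cluster 2 it went from 0 UMIs in 130 cells to 72 in 2110. On Day 14 against Day 7, 3 were lower (*Mmp8* -2.16, *Mmp13* -1.16 and *Mmp14* -2.07) and 0 higher (*Mmp8* in cluster 2 at -0.25, with an interval on both sides of 0), against 6.59% and 5.50% of 12744 genes. The median over the 10 genes was 0.35 and then -0.12, with 0.02 and -0.12 over all genes. Over whole libraries, *Mmp13* fell by 3.56 and *Mmp9* by 2.46 log2 units from Day 7 to Day 14, while *Mmp3* was 0.67 higher.

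Of the 13 other mouse family genes, 12 were found, *Mmp1a* was not analysed here, and 3 had at least 500 UMIs. *Mmp16* was at 5.56, 4.77 and 9.62 CPM in fibroblast-like cells and at 41.8 in mesenchymal-like cells of Day 14. *Mmp25*, a membrane-bound member known from leukocytes, was in dendritic-like cells at 94.5, 111 and 74.0 CPM, above neutrophil-like cells at 31.4 and 25.15 on Days 3 and 7. *Mmp27* was at 10.6, 9.13 and 18.6 CPM in fibroblast-like cells. In fibroblast-like cells 6 of the 12 could be compared, and 1 was at least 2-fold higher on Day 7 than on Day 3 (*Mmp10*, 2.46), and on Day 14 against Day 7 2 were higher (*Mmp16* 1.01 and *Mmp27* 1.03) and 1 lower (*Mmp10* -3.47). *Mmp10*, which lies in the chromosome 9 block, thus moved in the direction of *Mmp13*, on 233 and 23 UMIs on Days 7 and 14.

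Of 14 listed regulators, 10 had at least 1000 UMIs and 11 could be compared in fibroblast-like cells. *Timp1*, the inducible inhibitor of most of these enzymes, was at 3741, 794 and 471 CPM on Days 3, 7 and 14 in fibroblast-like cells. *Timp2*, which inhibits *Mmp2* and also helps MT1-MMP to open it, went the other way, at 352, 1598 and 2042 CPM, and *Timp3*, which is bound to the matrix, was at 137, 182 and 376. On Day 7 against Day 3, 1 regulator was at least 2-fold higher (*Timp2* 2.18) and 4 lower (*Timp1* -2.24, *Plau* -1.02, *Plaur* -1.50 and *Lcn2* -3.76). The make-up of the class differed between these libraries. Clusters 22 and 25 were 39.6% and 53.0% of fibroblast-like cells on Day 3 and 7.11% and 3.18% on Day 7. *Timp1* is among the 10 leading genes of cluster 25, and the regulators were not compared within clusters. On Day 14 against Day 7, 2 regulators were higher (*Timp3* 1.04 and *Reck* 1.00, a membrane-anchored inhibitor). Lower were 2, *A2m* (-4.99, from 58 to 2 UMIs) and *Lcn2* (-4.04, from 120 to 8 UMIs). *A2m* had 85 UMIs in all, below the 1000 of the other regulators named. In macrophage-like cells *Plaur*, the urokinase receptor, was at 232, 77.0 and 225 CPM and *Furin*, which opens *Mmp11* and *Mmp14*, at 264, 163 and 197. There 2 of 9 regulators were higher (*Timp3* and *Plat*) and 2 lower (*Timp1* -1.02 and *Plaur* -1.59) on Day 7 than on Day 3. Both of the higher ones are fibroblast-held. Their Day 7 levels, 3.74% and 4.64% of the fibroblast-like ones, were within the range of the fibroblast markers. The *Timp3* level could not be told apart from background. *Plat* stood above all 8 markers on Day 3 (1.14%, markers up to 0.927%) and on Day 14 (6.34%, markers up to 4.40%). The part of background in its ratio was not tested. On Day 14 against Day 7, 2 of 10 regulators were higher (*Plaur* 1.55, and *Timp3* 1.13 at 3.96%, again within the range of the markers). Lower were 2 (*Timp1* -1.14, and *Lcn2* -3.18 on 39 and 2 UMIs). The macrophage-like level of *Timp1* was 2.94%, 6.82% and 5.24% of the fibroblast-like one on Days 3, 7 and 14. That was above all 8 fibroblast markers, which reached 0.927%, 4.76% and 4.40%. The part of background in the *Timp1* ratios was not tested.

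The genes whose pattern was most like each enzyme were found by Pearson's r of log2(CPM + 1) over 20 class-by-day groups among 11796 genes. These points share 3 libraries and differ in depth, so the values are descriptions. *Mmp2* was most like *Tnxb* (0.983), *Dpt* and *Aebp1*, *Mmp3* like *Ogn* (0.967), *Dcn* and *Cthrc1*, and *Mmp23* like *Thbs3* (0.972), *Adamts5* and *Rcn3*. *Mmp11* was most like *Naalad2* (0.927), *Vstm4* and *Cacna2d1*. *Mmp8* was most like *Fpr2* (0.983), *Fpr1* and *Rab7*, and *Mmp9* like *Tnfrsf26* (0.926), *Fpr1* and *E230032D23Rik*. *Mmp12* was most like *Aif1* (0.930), *Adgre1* and *Fcgr2b*, *Mmp19* like *Pla2g15* (0.908), *Tmem104* and *Cndp2*, and *Mmp14* like *Glg1* (0.905), *Tram2* and *Slc39a7*. *Mmp13* had no gene above *Dppa3* (0.783), followed by *Msr1* and *Grn*. Among the enzymes themselves the closest pairs were *Mmp2* with *Mmp3* (0.941), *Mmp3* with *Mmp23* (0.898), *Mmp2* with *Mmp23* (0.897) and *Mmp8* with *Mmp9* (0.873).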

How the data were processed

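The deposited values are raw UMI counts per gene and cell barcode, which the authors made with Cell Ranger (6.0.0 and genome build mm10 per the submitters' processing notes), with no normalization. Barcodes with at least 200 genes, 500 UMIs and at most 10% mitochondrial UMIs were kept (4452, 21568 and 14472 of 5158, 22924 and 16611 on Days 3, 7 and 14), and 92, 1978 and 962 simulated-neighbour doublet calls were removed. Library totals were 38133650, 120940799 and 112713257 UMIs. The 3 libraries were clustered together (2000 variable genes, 147 genes barred, 30 principal components, Leiden resolution 1; Python 3.11.15, numpy 2.4.6, scipy 1.17.1, leidenalg 0.10.2) and clusters were named from marker lists. UMIs were summed per class and day and given as CPM. A ratio was counted as called at 2-fold or more with at least 20 UMIs in the pair. With 1 library per day no test was run. The coverage of the ratio intervals was checked on simulated Poisson counts only, the case that the intervals assume. Uneven spread over cells, as seen for *Mmp12*, *Mmp9* and *Mmp13*, was not simulated. The 10 genes are the named genes, followed by the family genes with at least 500 and the regulators with at least 1000 UMIs. Likeness used the 3 genes of highest r. Other cell filters, doublet shares, clusterings, class rules, scalings and thinning depths were tried. The members and lists were chosen with earlier results of these data known.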

Additional observations from a re-analysis of the deposited data

Results flagged for a closer look

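In the 1356 barcodes of Day 7 that the filters removed, *Mmp9* was at 79.2 CPM against 16.1 in the kept cells, on 137 UMIs, and *Mmp12* at 124 CPM against 95.1, on 214 UMIs. These are the values above the kept cells that drew attention in data that the comparisons did not use.

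In 5 cases the log2 ratio was above 0 with its whole counting interval in one of fibroblast-like and macrophage-like cells and below 0 with its whole interval in the other, and the difference was not tested. For Day 7 over Day 3 the log2 ratios were 1.09 and -1.23 for *Mmp9*, 6.30 and -1.49 for *Mmp13*, 0.64 and -0.92 for *Mmp14*, and -0.065 and 2.15 for *Mmp23*, in that order of classes. For Day 14 over Day 7 they were -0.38 and 0.87 for *Mmp19*. The macrophage-like levels of *Mmp9* on Days 3 and 7 were 6.22% and 4.05% of the neutrophil-like ones, above 7 of the 8 neutrophil markers and below *Csf3r* (7.25% and 5.79%). For *Mmp13* 3 macrophage-like clusters were below 0 with their whole interval, and clusters 2 and 14 above it. The macrophage-like level of *Mmp23* lay within the range of the fibroblast markers, and its fibroblast-like ratio turned to 0.16 when CPM was computed without the 50 most abundant genes.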

How the results depend on the processing

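There were 14 other settings (cell filters, doublet removal, clustering, class assignment, scaling and thinning), of which 2 were chosen after seeing the data. Scaling bears only on levels and ratios and thinning only on shares of cells with a UMI, so fewer settings stand behind each count. Across those, the counts of genes held by fibroblast-like cells and of genes past 2-fold stayed within 1.5 times their values. Fibroblast-like cells held over 50% of the UMIs of 5, 4 to 6 and 6 to 7 of the 10 genes on Days 3, 7 and 14. Leaving out clusters 9, 12 and 31, with their UMIs kept in the totals, put *Mmp11* and *Mmp13* of Day 7 under 50%. The like counts for macrophage-like cells, 4, 2 and 3, moved to 1, 1 and 0 with a class given to each cell without clusters. The number of genes at least 2-fold higher on Day 7 than on Day 3 in fibroblast-like cells was 4 to 6, and the number lower on Day 14 than on Day 7 was 2 to 3 in fibroblast-like and 2 to 3 in macrophage-like cells, where on Day 7 against Day 3 it was 4 to 5 higher and 2 to 4 lower. Of 330 shares of a gene's UMIs in its leading class, 166 stayed within the counting interval and 164 moved beyond it. Of 519 log2 ratios, 441 stayed within the counting interval, 77 moved beyond it and 1 turned its direction among ratios whose interval lay on 1 side of 0: *Mmp23* in fibroblast-like cells, Day 7 over Day 3, at 0.16 without the 50 most abundant genes, where the median of all genes was 0.14 in place of -0.09. Ratios whose interval reached 0 also changed sign, such as *Mmp8* in fibroblast-like cells, Day 14 over Day 7 (0.67, and -0.38 with doublets kept), and *Mmp2*, *Mmp9*, *Mmp11* (Day 14 over Day 7) and *Mmp19* (Day 7 over Day 3) in macrophage-like cells. In macrophage-like cells the scaling without those genes put the median at 0.27 in place of 0.02. With a class given to each cell without clusters, macrophage-like cells held 40.75%, 57.5% and 39.4% of *Mmp12* UMIs, 44.6% and 37.6% of *Mmp8* on Days 3 and 7, 56.9% of *Mmp13* on Day 3 and 30.5% of *Mmp19* on Day 14, and fibroblast-like cells 62.1% of *Mmp11* on Day 3. With each library clustered alone, fibroblast-like cells of Day 7 held 29.5% of *Mmp13*, 20.8% of *Mmp9* and 54.35% of *Mmp11*. The fibroblast-like clusters other than 9 and 12 held 54.2% of all kept *Mmp14* UMIs of Day 7. The UMIs of clusters 9 and 12 stayed in that total, so this lower share follows from the way it was computed. The cause of the other moves was not tested. No paired analysis was possible because each day has 1 library. Depth limits *Mmp8* on Day 14, *Mmp11* on Day 3 and *Mmp13* on Day 14, with 76, 95 and 149 UMIs in all.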
